A study of Mus musculus with 2 samples.

Results

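Early secretory precursors were taken here as crypt cells that held transcripts of Atoh1 or Dll1 while they were still low in the products of finished secretory cells. A member was a cell with at least 5000 unique molecular identifiers (UMIs, each a distinct captured transcript), at least 2 UMIs of Atoh1 plus Dll1 and fewer than 3 UMIs of Neurog3. Per 10000 UMIs of the cell, it also held under 50 of Tff3, under 20 of Lyz1, under 10 of Chga, Chgb, Cpe and Neurod1 together, and under 5 of Apoa1. This rule took 62 of 4374 cells, 57 of 2563 in the control library and 5 of 1811 in the Taf4 IEC library. Atoh1, Dll1 and the limit genes thus chose the members, and their levels are given as a description only.

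The cells came from enteroids, cultures of intestinal epithelium grown from ileal crypts of 4-month-old C57Bl6/129sv mice and captured by droplet single-cell RNA-seq after sorting for live cells. The control library is named WT and ethanol-treated in the labels, whereas the study's methods describe control enteroids as Taf4lox/lox treated with 4-hydroxytamoxifen (4-OHT). The Taf4 IEC library is named KO and 4OHT-treated, and the methods describe it as Taf4lox/lox::VilCreERT2, in which 4-OHT (1 µM for 3 days) activates a Cre recombinase driven by the villin promoter of intestinal epithelial cells. Each group was 1 library, and cells of 1 library are not replicates, so no difference between them has a replicate check, no test was made, and all intervals are 95% intervals that cover counting error only. The question put to the data was how loss of Taf4, part of the TFIID complex that helps to seat RNA polymerase II at promoters, bears on these cells.

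In the crypt, neighbouring cells sort themselves into absorptive and secretory fates through Notch signalling. A cell that displays the ligand Dll1 activates Notch receptors on its neighbours, which then make the repressor Hes1 and keep Atoh1 off. A cell that escapes this signal keeps Atoh1, the transcription factor that opens the secretory programme, and can become a Paneth, goblet, enteroendocrine or, by a partly separate path, tuft cell.

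Atoh1 lies on chromosome 6 at 64729125 to 64731245 and Dll1 on chromosome 17 at 15367354 to 15376932 of the mouse GRCm38 assembly. The 250 bases before their starts are shown because these 2 genes define the cells. Capitals mark the letters CAGNTG, an E-box of the kind that Atoh1 and other bHLH factors bind. The Dll1 sequence is that of the second of 2 RefSeq entries, at chr17:15376933-15377182 on the minus strand, and the Atoh1 sequence is at chr6:64728875-64729124 on the plus strand.
Dll1: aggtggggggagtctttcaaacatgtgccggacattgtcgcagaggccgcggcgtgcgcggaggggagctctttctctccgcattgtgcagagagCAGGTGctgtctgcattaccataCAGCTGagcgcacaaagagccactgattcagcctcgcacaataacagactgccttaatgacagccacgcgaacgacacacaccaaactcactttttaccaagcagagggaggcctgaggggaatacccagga
Atoh1: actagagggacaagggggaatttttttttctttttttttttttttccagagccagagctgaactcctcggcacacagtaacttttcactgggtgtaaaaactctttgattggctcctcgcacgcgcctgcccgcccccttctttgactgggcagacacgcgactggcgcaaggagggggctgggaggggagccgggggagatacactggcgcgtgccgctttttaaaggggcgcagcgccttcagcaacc
The Dll1 window shown held 2 such E-boxes, 155 to 150 and 132 to 127 bases before the start, and the Atoh1 window held none. The window of the first Dll1 entry, at chr17:15375824-15376073 and not shown, also held none. Of 32841 mouse promoters read the same way on both strands, 44.8% held at least 1, so this is a description of the windows and not of binding.

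The libraries held 39947009 UMIs in control and 24990128 in Taf4 IEC enteroids. At least 5000 UMIs were reached by 1988 control cells (77.6%) and 758 Taf4 IEC cells (41.9%), and these deep cells had median depths of 19347.5 and 33041.5 UMIs. The precursors had medians of 18966 UMIs (range 9708 to 33562) in control and 21404 (14985 to 33554) in Taf4 IEC enteroids. The 2 libraries shared 2 cell barcodes, neither of them a precursor, and no precursor was called a doublet. Taf4, at chromosome 2, 179912146 to 179976646, gave 10 UMIs in control and 1 UMI in Taf4 IEC precursors, 0.084 and 0.085 per 10000, too few to check the labels in these cells. Markers of immune, stromal and other cells outside the epithelium summed to 1 UMI in control and 0 in Taf4 IEC precursors.

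Precursors made up a smaller share of the Taf4 IEC library, although cells with Atoh1 or Dll1 did not. At least 2 Atoh1 plus Dll1 UMIs were found in 163 of 1988 deep control cells (8.20%, 7.03 to 9.49) and in 79 of 758 deep Taf4 IEC cells (10.4%, 8.34 to 12.8), a difference of 2.22 points (-0.230 to 4.89). The precursors among them were 57 in control (2.87% of deep cells, 2.18 to 3.70) and 5 in Taf4 IEC enteroids (0.660%, 0.215 to 1.53). The difference was -2.21 points (-3.15 to -1.10) of deep cells. Read against the cells with Atoh1 or Dll1 alone, precursors were 35.0% (27.7 to 42.8) in control and 6.33% (2.09 to 14.2) in Taf4 IEC enteroids. Apoa1-high cells, absorptive cells that should lack both genes, reached 2 such UMIs in 1 of 121 control cells (0.826%) and in 2 of 103 Taf4 IEC cells (1.94%), at median depths of 22561 and 43790 UMIs. Shares of that size are read as background here, but their intervals are wide, at 0.021 to 4.52% in control and 0.236 to 6.84% in Taf4 IEC enteroids. The Taf4 IEC precursor share of 0.660% was no larger, so by number alone the 5 members cannot be told from background. The control precursor share of 2.87% was larger than the control background share but lay inside its interval. By number alone the control members are thus not set clear of background either. Of cells under all limits, precursors were 3.90% in control and 1.21% in Taf4 IEC enteroids.

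**Figure D1:**
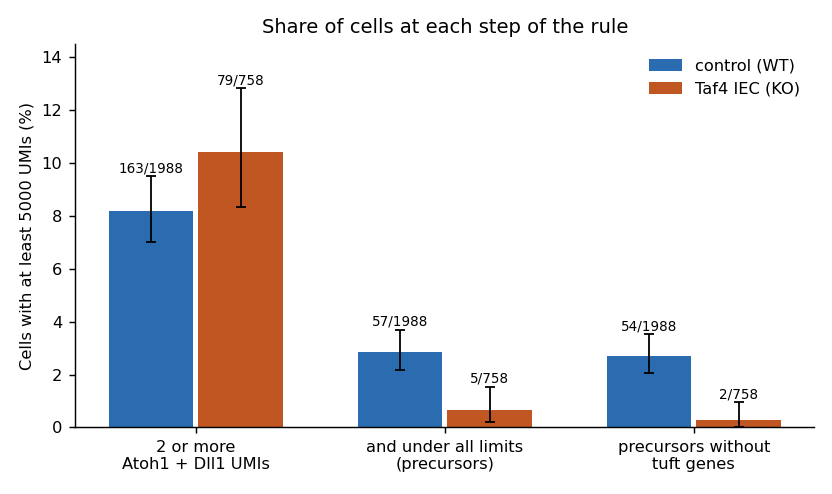
Share of cells with at least 5000 UMIs (y axis, percent) in control (blue) and Taf4 IEC enteroids (orange) that held 2 or more Atoh1 plus Dll1 UMIs, that also lay under all limits, and that in addition lacked tuft genes; bars are shares and lines are exact 95% binomial intervals. The intervals overlap at the first step, 8.20% and 10.4%, and lie apart at the second, 2.87% and 0.660%.

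The 2 libraries parted at the limit on Tff3, the trefoil peptide of goblet cells. Of cells with 2 or more Atoh1 plus Dll1 UMIs, 92 of 163 in control (56.4%) and 68 of 79 in Taf4 IEC enteroids (86.1%) were at or over it, a difference of 29.6 points (17.3 to 40.1). Lyz1, the lysozyme of Paneth cells, was at or over its limit in 24 (14.7%) and 40 (50.6%) of them. Neurog3, the switch to the enteroendocrine lineage, removed 14 and 5 cells, and the enteroendocrine sum 0 of 163 and 4 of 79. A count of 0 of 163 allows a share of up to 1.84% at the floor of 3 counts, and the exact interval reaches 2.24%. The median Tff3 level of these cells was 60.3 per 10000 in control and 293 in Taf4 IEC enteroids. Intermediate levels of 25 to 100 were held by 56 control cells (34.4%) and 2 Taf4 IEC cells (2.53%), a difference of -31.8 points (-40.0 to -22.2).

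**Figure D2:**
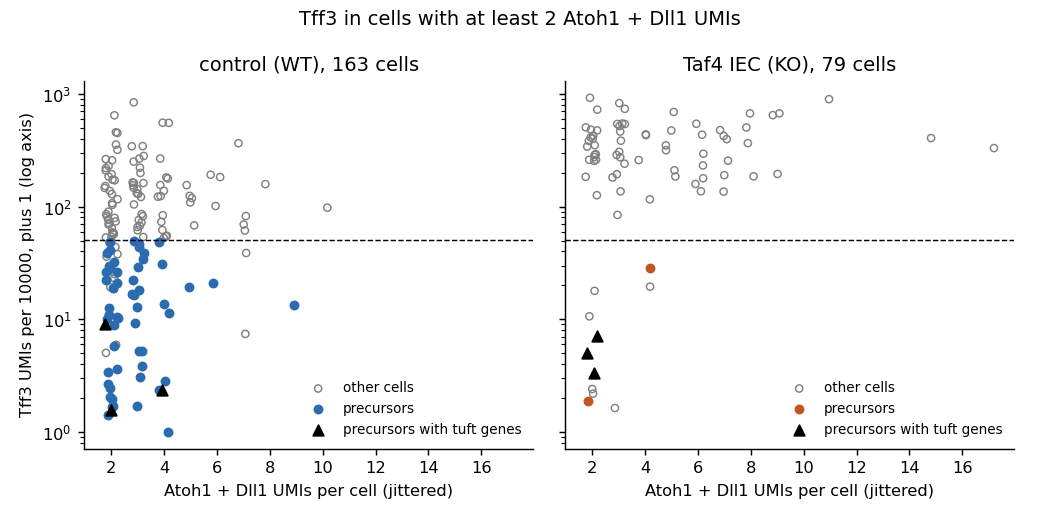
Tff3 level of each cell with at least 2 Atoh1 plus Dll1 UMIs (y axis, UMIs per 10000 plus 1, log axis) against its Atoh1 plus Dll1 UMIs (x axis, jittered) in control (left) and Taf4 IEC enteroids (right); filled points are precursors, triangles precursors with tuft genes and open points cells over a limit, and the dashed line is the Tff3 limit. Control cells lie close to the line on both sides, and between 25 and 100 per 10000 there are 56 control cells and 2 Taf4 IEC cells.

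Just inside the Tff3 limit the highest control precursor held 48.4 per 10000, and just outside it the lowest excluded control cell held 52.2. In Taf4 IEC enteroids the same neighbours held 27.4 and 83.3. The Tff3 limit alone kept out 68 control and 27 Taf4 IEC cells. Cells with a single Atoh1 or Dll1 UMI under all limits were 118 in control (5.94% of deep cells) and 18 in Taf4 IEC enteroids (2.37%). Of Apoa1-high cells, 10.7% in control and 15.5% in Taf4 IEC enteroids held at least 1 such UMI. These count cells with 1 or more UMIs among Apoa1-high cells only, so they are not a like measure. Cells with a single UMI are therefore not read as above background. Cells under all limits were themselves 73.4% of deep control and 54.6% of deep Taf4 IEC cells.

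Depth moved with these shares, since Atoh1 or Dll1 cells had a median of 18412 UMIs in control and 33899 in Taf4 IEC enteroids. When each deep cell was thinned to 5000 UMIs before the rule, 32 control (1.61%) and 12 Taf4 IEC cells (1.58%) held 2 such UMIs, and 5 and 0 were precursors. The difference in precursors was then -0.252 points of deep cells with an interval that includes 0 (-0.586 to 0.263), so at that depth it was not detectable.

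Tuft genes marked a part of the members. Cells with at least 5 UMIs of the tuft list, such as Rgs13, Ltc4s and Trpm5, were 3 of 57 control and 3 of 5 Taf4 IEC precursors, and all 6 had been taken in by Dll1 alone. Their tuft UMIs were 45, 42 and 18 in control and 150, 98 and 38 in Taf4 IEC enteroids, against at most 3 in any other control and 1 in any other Taf4 IEC member. Without them precursors were 54 of 1988 (2.72%) and 2 of 758 (0.264%), a difference of -2.45 points (-3.30 to -1.49). Of all deep cells, 12 in control (0.604%) and 11 in Taf4 IEC enteroids (1.45%) had tuft genes at that level. The label of an early secretory precursor therefore described most control members but not most Taf4 IEC members, whose 3 tuft cells held no Atoh1 and no Lgr5.

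The 5 Taf4 IEC members are described one by one. The 3 tuft-gene cells held 2 Dll1 UMIs each and Sox4 at 32.7, 28.9 and 43.9 per 10000. The fourth held 4 Atoh1, 3 Foxa2, 15 Hes6 and 3 Wnt3 UMIs with Tff3 at 27.4 per 10000, and it was the only one of the 5 with Atoh1. The fifth held 2 Dll1 UMIs beside 96 Olfm4, 15 Hes1 and 7 Lgr5 UMIs, and its Sox4 level was 3.28 per 10000. Olfm4 and Lgr5 mark crypt base stem cells, and this cell held more UMIs of those 2 genes than of Dll1, Sox4, Foxa2 and Hes6 together.

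The control precursors were compared with 958 Lgr5 cells of the same library, cells under the same limits with at least 2 UMIs of the stem cell receptor Lgr5 and none of Atoh1 or Dll1. Of 4715 genes at a mean level of at least 0.2 per 10000, 87 (1.85%) were at least 2-fold higher and 45 (0.954%) at least 2-fold lower in precursors, and the median log2 ratio over all genes was 0.02. The mean was that of the 2 kinds of cell. A gene under 0.2 in Lgr5 cells therefore passed this filter only by being higher in precursors, and the reverse held for genes under 0.2 in precursors. Each of these 132 ratios had a counting interval on one side of 0. The genes were chosen as past 2-fold in the same counts, so this is not a check of them. Most of the higher genes were shared with other secretory cells. Among 5 kinds of control cell, 33 of the 87 were highest in goblet-type cells (Tff3 at or over 50), 32 in Neurog3 cells, 20 in precursors and 2 in Apoa1-high cells. Of all 4715 genes, 10.8% were highest in goblet-type cells, 21.3% in Neurog3 cells, 21.5% in precursors and 27.0% in Apoa1-high cells. The 20 highest in precursors were 23.0% of the 87, near that background, whereas goblet-type and Neurog3 cells took 37.9% and 36.8%. Fewer than 100 UMIs stand behind several genes named below, which were chosen after their values were seen.

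Most regulators of secretory fate that passed the level filter stood higher. Leaving out Atoh1, 12 of 19 listed regulators were measured, 7 were at least 2-fold higher and none lower, with a median log2 ratio of 1.24 against 0.02 for all genes. Sox4, an HMG-box factor of early secretory and tuft cells, was present in 56 of 57 cells at 0 to 36.0 per 10000, with a median of 9.15 per cell against 2.88 in Lgr5 cells. Its summed levels were 11.1 and 3.66, a log2 ratio of 1.60 (1.52 to 1.69). Foxa2, a forkhead factor of secretory cells, was found in 33 of 57 precursors and 211 of 958 Lgr5 cells, at 0.574 and 0.134 per 10000 (log2 ratio 2.10, 1.69 to 2.49). The 2 marker genes that the rule did not use were thus both higher in the control members.

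The relatives of Foxa2 were less far apart. Foxa1 had a log2 ratio of 1.30 (0.88 to 1.70) and Foxa3 of 0.79 (0.46 to 1.10). Klf4, a zinc-finger factor of goblet cells, stood at 0.945 against 0.349 per 10000 (1.44, 1.14 to 1.73), below its 1.66 in goblet-type cells. Sox9, which Paneth cells need, and Xbp1, a driver of secretory capacity, were close to their stem cell levels at log2 ratios of 0.29 and 0.42. Spdef and Gfi1, factors that act later in goblet and Paneth cells, gave only 10 and 5 UMIs over all 57 cells.

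Genes nearly silent in Lgr5 cells gave the larger ratios, but at such levels the filter passed only genes that were higher in precursors. Bhlha15, a factor of cells with dense secretory machinery, was found in 28 of 57 precursors and 59 of 958 Lgr5 cells, at 0.498 and 0.033 per 10000 (log2 ratio 3.89, 3.37 to 4.42). Cbfa2t3, a transcriptional corepressor, was found in 29 precursors, at 0.430 and 0.037 per 10000 (3.54, 3.00 to 4.07). Creb3l1, a membrane-bound factor of the secretory pathway, had a ratio of 2.48 (1.92 to 3.00). Bhlha15 stood at 0.477 in goblet-type cells, a log2 ratio of 0.06 (-0.40 to 0.51) that is within counting error, and Cbfa2t3 was highest in Neurog3 cells at 1.37.

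Insm1, a zinc-finger factor that directs endocrine differentiation, was found in part of the control precursors. It had a UMI in 28 of 57, against 24 of 958 Lgr5 cells and 18 of 167 goblet-type cells. Its level was 0.683 per 10000 in precursors and 0.017 in Lgr5 cells (log2 ratio 5.31, 4.72 to 5.92). In Neurog3 cells it was 6.18, well above the precursors. The rule kept out cells with 3 or more Neurog3 UMIs, and the members held none. Thinned to 5000 UMIs, Insm1 was still found in 26.3% of precursors and 0.626% of Lgr5 cells.

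Among Notch genes the main target stood lower, while Dll1 itself was set by the rule. Hes1, the repressor induced by Notch, was found in 28 of 57 precursors and 764 of 958 Lgr5 cells, at 0.582 and 1.83 per 10000 (log2 ratio -1.66, -2.02 to -1.31). Thinned to equal depth, 19.3% of precursors and 49.3% of Lgr5 cells held a Hes1 UMI. The other kinds of control cell were as low, with 21.6% of goblet-type, 12.6% of Neurog3 and 21.5% of absorptive Apoa1-high cells. A low Hes1 level was thus not particular to the precursors or to secretory cells. Hes6, a relative that opposes Hes1, went the other way, in 54 of 57 precursors at 3.05 per 10000 against 1.35 (1.18, 1.02 to 1.34). The 2 Hes genes thus moved apart in the same cells.

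The rest of the pathway differed little or was sparse. Dll4, a second ligand, gave 17 UMIs in 13 precursors, 0.143 against 0.023 per 10000 (log2 ratio 2.63, 1.74 to 3.46). Lfng, a glycosyltransferase that tunes Notch receptors, gave 27 UMIs in 20 precursors (2.59, 1.90 to 3.24). The receptor gene Notch1 stood at 0.422 against 0.296 per 10000 (0.51, 0.07 to 0.93). Of 25 genes of Notch processing and nuclear machinery 6 were measured and none reached a 2-fold difference, their median being -0.04, with the gamma-secretase subunit gene Psenen at -0.01.

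**Figure D3:**
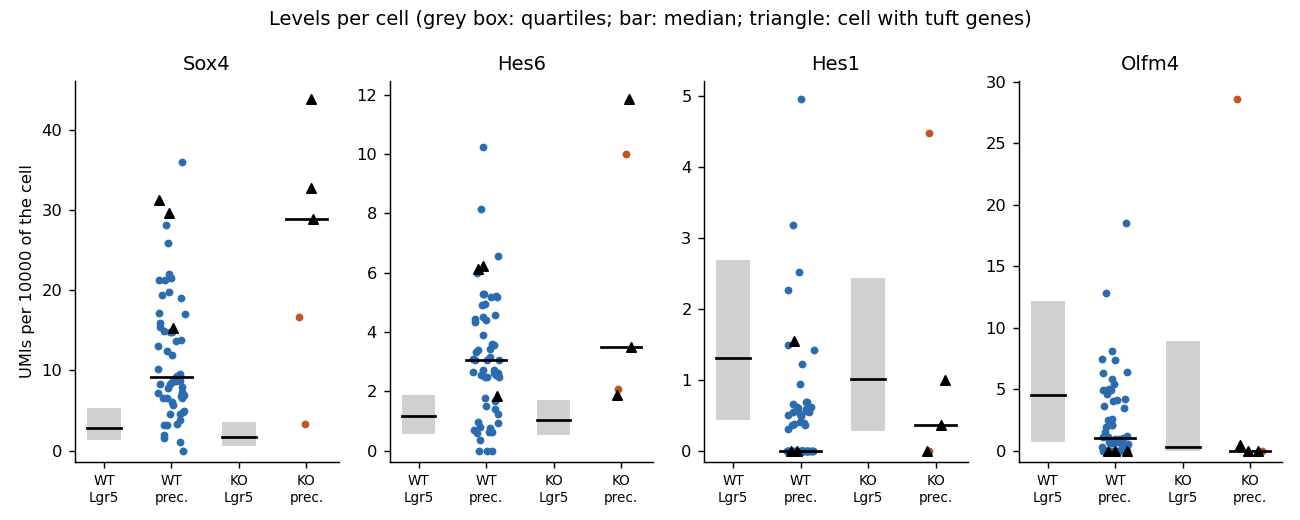
Levels of Sox4, Hes6, Hes1 and Olfm4 per cell (y axis, UMIs per 10000 of the cell) in Lgr5 cells, drawn as the box between their quartiles, and in precursors, drawn as points, for each library; bars are medians and triangles precursors with tuft genes. In control enteroids the medians of precursors and Lgr5 cells are 9.15 and 2.88 for Sox4, 3.04 and 1.18 for Hes6, 0 and 1.30 for Hes1, and 1.02 and 4.52 for Olfm4.

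Stem cell genes were mostly kept. Of 20 listed stem cell genes other than Lgr5, 12 were measured, none was 2-fold higher, 1 was 2-fold lower, and the median log2 ratio was 0.05. The lower one was Olfm4, a secreted crypt base glycoprotein whose gene responds to Notch, at 2.60 against 8.15 per 10000 (-1.65, -1.82 to -1.49). Lgr5, which chose the comparison cells, was in 52 of 57 precursors at 2.36 per 10000, beside 2.32 in Lgr5 cells and 1.17 in goblet-type cells. Smoc2 and Ascl2, of the same crypt base programme, had ratios of 0.36 and 0.34. Nupr1, a stress-response gene, was among the 45 lower genes at 3.51 against 8.43 per 10000, and 32 of those 45 (71.1%) were highest in Apoa1-high cells, against 27.0% of all genes.

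Signals of the secretory niche were present in the control precursors. Wnt3, the Wnt ligand of Paneth cells, was found in 40 of 57 precursors and 111 of 958 Lgr5 cells, at 0.919 and 0.070 per 10000 (log2 ratio 3.71, 3.33 to 4.08). Kit, a receptor tyrosine kinase of Paneth and goblet cells, was found in 32 precursors (3.68, 3.18 to 4.18). Cd24a, a surface glycoprotein used to sort secretory cells, was in all 57 at 1.27 to 27.2 per 10000, and its summed level was 5.85 against 2.68 (1.13, 1.01 to 1.24). Against goblet-type cells, the log2 ratio of Wnt3 was -0.03 (-0.36 to 0.29), within counting error, and that of Kit was -0.88 (-1.30 to -0.47).

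Products of finished cells were higher than in Lgr5 cells but lay unevenly over the precursors. Without the limit genes, 4 of 15 listed goblet markers were measured and all 4 were at least 2-fold higher, with a median log2 ratio of 3.00. Of 15 Paneth markers 6 were measured, 5 of them at least 2-fold higher and 1, Nupr1, lower, with a median of 2.62. Muc2, the main gel-forming mucin, had a UMI in 4 of 57 precursors. Defa24, an alpha-defensin of Paneth cells, had a summed level of 5.04 against 0.697 per 10000, yet 50.4% of its UMIs came from 1 cell and 86.4% from 3, and the medians per cell were 0.603 and 0.539. Ang4 and Itln1, antimicrobial genes of the same cells, had 64.9% and 63.4% of their UMIs in 1 cell. Spink4, a protease inhibitor of goblet cells, stood at 7.89 against 0.812 with 27.5% of UMIs in 1 cell, and at 6.05 in Apoa1-high cells. Of the 87 higher genes, 10 had at least 25% of their UMIs in 1 cell and 75 stayed past 2-fold without their highest cell.

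Smim6, Fcgbp and Txndc5 were spread more evenly, with at most 9.66% of their UMIs in 1 cell. Smim6, a small membrane protein gene, was in 48 of 57 precursors (log2 ratio 2.71, 2.46 to 2.96) and Fcgbp, a mucus protein gene, in 40 (2.87, 2.69 to 3.04). Txndc5, an ER disulfide isomerase, was in 52 of 57 (1.41, 1.17 to 1.65). Clps, which encodes pancreatic colipase, was in 35 at 3.11 against 0.212 per 10000 (3.87, 3.67 to 4.08), with 27.1% of its UMIs in 1 cell. Unlike Spink4, Clps was near 0 in Apoa1-high cells, at 0.042 per 10000.

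Of the 20 genes highest in the precursors themselves, a share near that of all genes, Dll1 was set by the rule, and Rgs13 came from 2 tuft-gene cells. The others included Foxa1, Foxa2, Bhlha15, Mycl (a Myc family member), Cdc25b (a phosphatase of mitotic entry) and Clca3b. Mycl stood at 0.380 per 10000 in precursors, 0.123 in Lgr5, 0.330 in Neurog3 and 0.065 in goblet-type cells. Clca3b, of a family of secreted chloride channel regulators, stood at 3.06, 1.48, 0.495 and 0.422 in the same order and was in 49 of 57 precursors. Against Neurog3 cells the ratios of Foxa2 (0.00, -0.50 to 0.50) and Mycl (0.20, -0.44 to 0.85) were within counting error, whereas that of Clca3b was 2.63 (2.24 to 3.04).

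**Figure D4:**
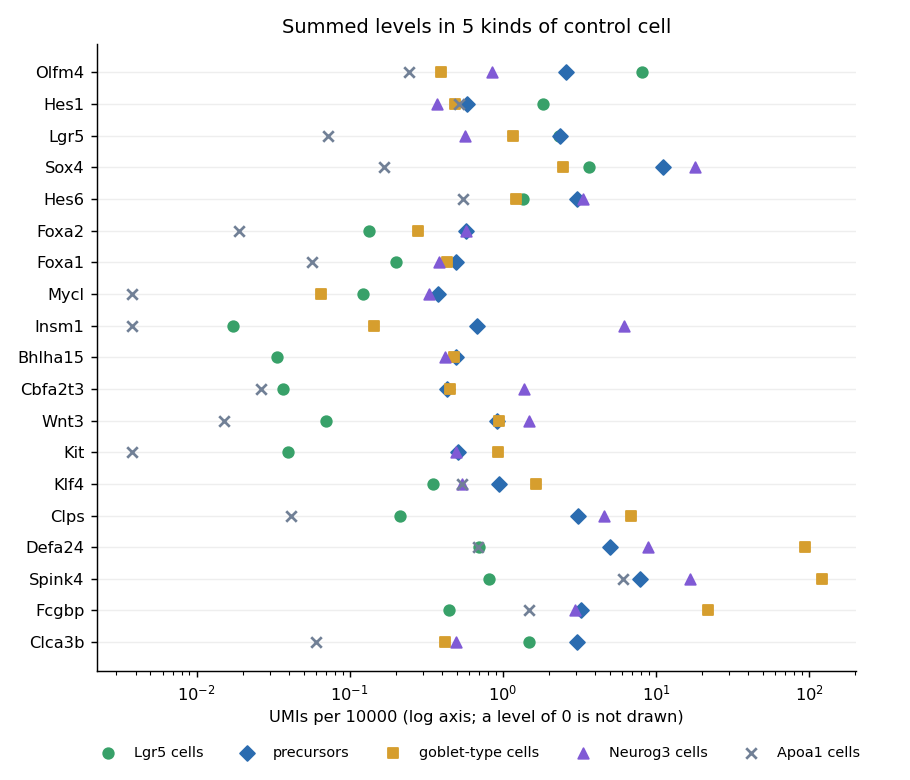
Summed levels of 19 genes (x axis, UMIs per 10000, log axis) in 5 kinds of control cell: Lgr5, precursor, goblet-type, Neurog3 and Apoa1-high. Precursors lie between Lgr5 and goblet-type or Neurog3 cells for genes such as Insm1 (0.017, 0.683 and 6.18 in Lgr5, precursor and Neurog3 cells) and Clps (0.212, 3.11 and 6.84 in Lgr5, precursor and goblet-type cells), and above all others for Clca3b.

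A smaller share of control precursors than of Lgr5 cells held genes of division. A UMI of Mki67 or Top2a, genes of dividing cells, was found in 30 of 57 (52.6%, 39.0 to 66.0), against 68.4% of Lgr5 and 15.7% of Apoa1-high cells, and at equal depth in 31.6%, 48.1% and 7.44%. None of 31 measured S phase genes and none of 40 G2/M genes reached a 2-fold difference from Lgr5 cells, with medians of -0.09 and -0.28. The 30 precursors with such a UMI and the 27 without differed in fate genes. Sox4 stood at 8.20 per 10000 in the former and 15.04 in the latter, Insm1 at 0.454 and 0.995, and Cbfa2t3 at 0.263 and 0.657. The groups had median depths of 23364 and 17614 UMIs, and a deeper cell more often yields such a UMI. The 3 tuft-gene members, without an Mki67 UMI and with Sox4 at 31.2, 15.3 and 29.6 per 10000, were not left out. The part of depth and of tuft genes in this split was not tested.

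The control members were also split by the genes that admitted them, as a description only. At equal depth Atoh1 was found in 29.8% and Dll1 in 31.6% of them, so a cell with 1 gene alone may have held the other uncaptured. Dll1 alone admitted 19 (33.3%), Atoh1 alone 14 (24.6%) and both 24 (42.1%). Leaving out the 3 tuft-gene cells, Dll1-only cells had Sox4 at 13.7 per 10000, Foxa2 at 1.06 and Insm1 at 1.32. Atoh1-only cells had 9.41, 0.428 and 0.321, and cells with both had 8.69, 0.427 and 0.576. The G2/M list summed to 27.7 in Dll1-only, 48.3 in Atoh1-only and 56.0 in double-positive cells. The Dll1-only cells thus had the lowest G2/M sum and the highest levels of these 3 factors. The groups were small and differed in median depth, at 18625, 16949 and 22495.5 UMIs, and the part of depth was not tested. An Insm1 UMI was found in 15 of 16 of them, 3 of 14 Atoh1-only and 9 of 24 double-positive cells. Defa24 stood at 0.695, 16.3 and 2.14. Since 1 cell held 50.4% of the Defa24 UMIs of all control members and 3 cells 86.4%, these values are not read as a trait of a kind.

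Across control cells under all limits, the fate genes changed with the number of Atoh1 plus Dll1 UMIs. With 0, 1, 2 and at least 3 such UMIs there were 1285, 118, 29 and 28 cells. Sox4 stood at 3.32, 4.90, 13.3 and 8.96 per 10000 and Hes1 at 1.70, 1.46, 0.648 and 0.517 in these cells. Insm1 stood at 0.032, 0.082, 0.717 and 0.650, and Wnt3 at 0.072, 0.309, 0.836 and 1.001. Olfm4 was at 6.95, 6.86, 1.88 and 3.30, and Lgr5 at 1.86, 1.98, 2.37 and 2.35. For Sox4, Hes1 and Olfm4, cells with 1 UMI lay nearer to those with none than to those with 2. Sox4 and Olfm4 turned back between 2 and at least 3 UMIs. At least 1 such UMI was also found in 10.7% of control Apoa1-high cells. The bins use the genes of the rule, so they describe these cells and do not check its limit.

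Beyond the rule, Tff3 ordered the control cells with Atoh1 or Dll1. In bins of 0 to 10, 10 to 25, 25 to 50, 50 to 100 and at least 100 Tff3 per 10000 there were 28, 15, 18, 32 and 55 cells, those over the Lyz1 limit included. Sox4 stood at 10.98, 12.35, 8.84, 5.44 and 1.48 per 10000 in the 5 bins, and Hes6 at 3.02, 3.27, 3.00, 2.08 and 0.965. Sox4 was lower from 25 on, and Hes6 was near level up to 50 and lower from there on. Olfm4 stood at 3.15, 2.62, 1.99, 1.16 and 0.316, and Insm1 at 0.627, 1.02, 0.375, 0.327 and 0.018. The 28 genes of the ER secretory machinery summed to 46.2, 51.9, 62.6, 90.6 and 105, and the S phase list to 21.2, 19.7, 12.4, 12.8 and 5.54. Muc2 stood at 0.245 at 50 to 100, where the ER machinery was already near its highest sum, and at 2.79 from 100 on. In Taf4 IEC enteroids the bins held 4, 0, 1, 1 and 63 cells, so no such order could be drawn there, and in its highest bin Sox4 stood at 2.51 and Muc2 at 11.6.

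**Figure D5:**
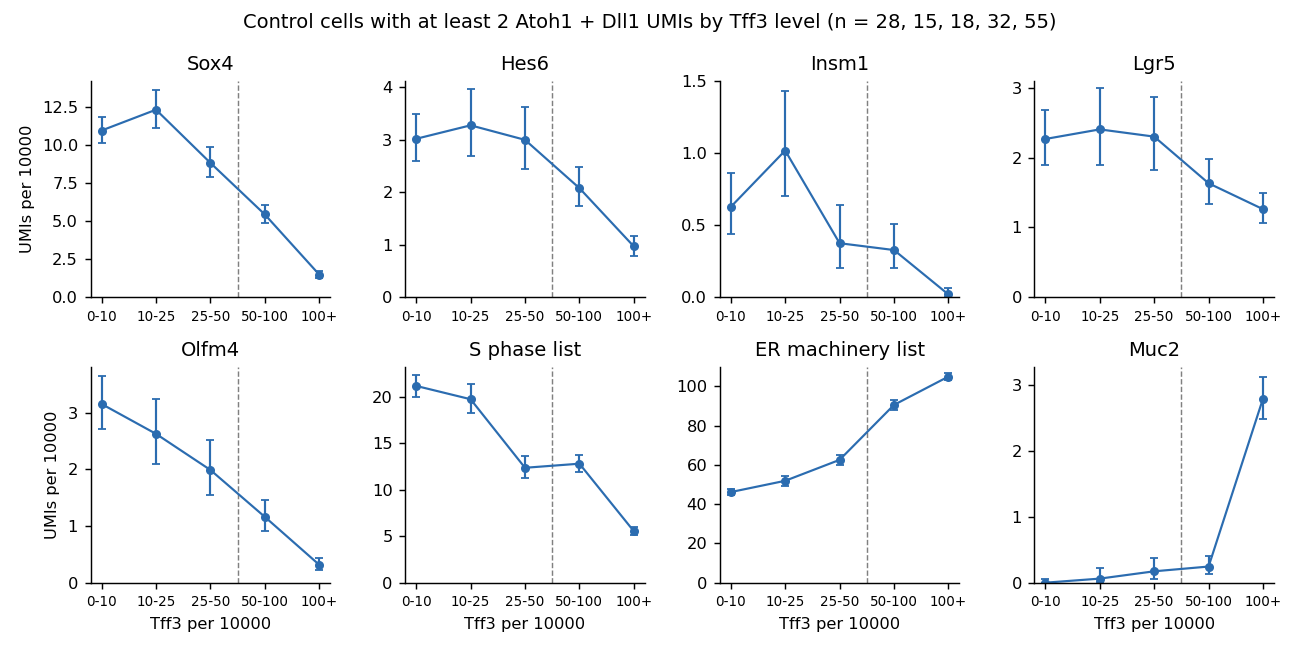
Summed level (y axes, UMIs per 10000) of 6 genes and 2 gene lists in control cells with at least 2 Atoh1 plus Dll1 UMIs, by Tff3 per 10000 (x axes); lines are exact 95% Poisson intervals and the dashed line is the Tff3 limit. Sox4 runs from 10.98 to 1.48 and the ER machinery list from 46.2 to 105 between the lowest and the highest bin.

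Between the libraries, 1532 genes had at least 100 UMIs over all precursors. Of these 85 (5.55%) were at least 2-fold higher and 113 (7.38%) at least 2-fold lower in Taf4 IEC than in control precursors. With TMM scaling, which shifted these ratios by -0.44 on the log2 scale, 29 and 244 genes were, and with a filter of 20 in place of 100 UMIs 818 and 635, so the split depended on the scaling and on the filter. In Lgr5 cells of the same libraries 21 (1.37%) and 32 (2.09%) of 1530 such genes were. The Taf4 IEC side held 117775 UMIs in precursors and 8732670 in Lgr5 cells. Ratios from fewer UMIs scatter more, so these shares are not a like comparison. With 5 Taf4 IEC cells, 3 of them with tuft genes, the values below describe these cells. The genes with the higher ratios included tuft genes, Rgs13 at 9.85 against 0.430 per 10000 (log2 ratio 4.52, 4.03 to 5.02) and Lrmp at 6.96 against 0.169 (5.37, 4.65 to 6.15). Malat1, a nuclear long non-coding RNA, had a ratio of 2.10 (2.03 to 2.18), and the 17 genes of RNA quality summed to 967 per 10000 in Taf4 IEC and 768 in control precursors. The part of tuft genes and RNA quality in these counts was not tested.

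The ratio of the secretory regulators depended on which cells were counted. Their median log2 ratio was 0.97, with 3 of 6 at least 2-fold higher, and 0.23 without the members with tuft genes. It turned to -0.45 when 1 Atoh1 or Dll1 UMI was enough, which gave 23 Taf4 IEC cells, and to -0.50 with doubled limits, which gave 8. Sox4 stood at 24.3 against 11.1 per 10000, a ratio of 1.13 (0.94 to 1.32), and at -0.46 without those members. Klf4 stood at 2.89 against 0.945 (1.61, 1.01 to 2.18) and Hes6 at 5.60 against 3.05 (0.88, 0.48 to 1.26). Genes of division gave lower values in the Taf4 IEC members, on few UMIs. The S phase list had a median ratio of -1.14 with 4 of 5 genes at least 2-fold lower, and the median bounds of its genes' intervals, -2.79 and 0.12, lay on both sides of 0. The G2/M list had a median of -2.27 with 10 of 15 genes lower, but -0.093 with at least 3 Atoh1 or Dll1 UMIs and 1.07 over 2 genes without Mki67 or Top2a cells. A UMI of Mki67 or Top2a was found in 1 of 5 members, a difference from control of -32.6 points with an interval that includes 0 (-56.3 to 20.8). In Lgr5 cells, which share the libraries, the same lists stood at -0.61 and -1.13.

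Several genes without a UMI in Taf4 IEC precursors were also low in Taf4 IEC Lgr5 cells. Gm10260, a ribosomal protein pseudogene, gave 816 UMIs in control and 0 in Taf4 IEC precursors, at least 27.0-fold lower against a floor of 3 UMIs. It stood at 7.14 in control and 0.007 in Taf4 IEC Lgr5 cells. Bex1, an X-linked gene first described in brain, gave 771 and 0 UMIs and stood at 5.55 and 0.068 in the same Lgr5 cells. Clps gave 369 and 0 UMIs, at least 12.2-fold lower, beside 0.212 and 0.008 in Lgr5 cells. It was not low throughout the Taf4 IEC library, with a UMI in 29 of 58 goblet-type cells and 34 of 64 Neurog3 cells. Defa24 gave 597 and 3 UMIs, and Reg4, an enteroendocrine and goblet cell lectin gene, 282 and 1.

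Genes higher than in Lgr5 cells in both libraries were few. Of 1529 genes 21 (1.37%) were at least 2-fold higher in precursors in both, and of 7983 genes 45 (0.564%) at least 2-fold lower. The precursors were chosen by the same rule in both libraries. The 21 included the tuft genes Rgs13 and Lrmp, and 3 of the 5 Taf4 IEC members held tuft genes. Those 3 cells held 70, 58 and 122 Sox4 UMIs, against 25 and 11 in the other members. The higher genes are thus not read as a secretory programme shared by the libraries. Sox4 had log2 ratios of 1.60 in control and 3.26 in Taf4 IEC enteroids, Klf4 of 1.44 and 4.12, and Wnt3 of 3.71 and 4.29. Selenom, an ER selenoprotein gene, had ratios of 3.29 and 5.49, and Fxyd3, an ion pump regulator gene, of 2.30 and 2.93. Wnt3 rested on 5 UMIs in 3 Taf4 IEC cells and Smim6, at 2.71 and 1.35, on 7 UMIs in 2.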

How the data were processed

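The authors deposited raw UMI counts per gene and cell for each of 2 libraries. Per the labels, reads were processed with bcl2fastq 2.17.1.14, Cell Ranger 3.1 and Seurat 3.1.4 on mm10. Cells were captured after a sort for live cells. The members, comparison cells and gene lists were chosen with earlier results of these data known. For each kind of cell, counts were added up and expressed per 10000 UMIs, with exact Poisson intervals, ratios with exact conditional binomial intervals, shares with exact Clopper-Pearson intervals and their differences with Newcombe intervals, all at 95%. With 1 library per group no p-value was computed. A UMI count of 0 was replaced by a floor of 3 counts for bounds. Reads without strand information in the sources used here may be shared by overlapping genes. Doublets were called with Scrublet in scanpy 1.11.5, which marked 10 control cells (0.390%) and 0 Taf4 IEC cells. Scripts used Python 3.11.15, numpy 2.4.6, scipy 1.17.1, pandas 2.3.3, R 4.3.3 and edgeR 4.0.16 (TMM scaling only) and were tested on simulated data. Promoter sequences were read from RefSeq (GRCm38.p6). Named genes were those of the rule and its markers, Taf4, genes of the Notch and secretory lists with at least 100 UMIs over both libraries' precursors, the 3 highest and lowest of the other lists, and the genes with the largest ratios. Genes with fewer UMIs and genes of the control comparison alone, such as Hes1, Insm1, Bhlha15, Cbfa2t3, Creb3l1, Kit, Mycl, Dll4, Lfng, Notch1, Spdef, Gfi1, Muc2, Cd24a, Cdc25b, Aen and Clca3b, were chosen after their values were seen.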

Additional observations from a re-analysis of the deposited data

How the results depend on the processing

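No paired analysis was possible because each group was 1 library. Alternatives changed 1 choice at a time. Leaving out tuft-gene members, doubling the limits, and all alternatives for the control comparison and for the share among Atoh1 or Dll1 cells were chosen after seeing the data. The share of precursors kept its direction under each alternative tried; it was -5.77 points with 1 Atoh1 or Dll1 UMI, -0.25 with cells thinned first and -3.37 with doubled limits, and among Atoh1 or Dll1 cells -15.6 thinned and -43.9 with doubled limits. Thinning first left 0 Taf4 IEC precursors, so no gene comparison between libraries could be made there.

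Gene counts depended on the filter and the cells. Genes higher in Taf4 IEC precursors numbered 267 with 1 Atoh1 or Dll1 UMI, 149 with doubled limits, 50 without mitochondrial and ribosomal genes in the total, 12 with members thinned, 32 without Mki67 or Top2a cells, 29 with TMM and 29 with median-of-ratios scaling, 818, 11 and 2007 with filters of 20, 300 and 1 UMIs. Lower genes numbered 240 with 1 UMI, 64 with halved and 194 with doubled limits, 20 thinned, 35 without Mki67 or Top2a cells, 244 and 237 with the 2 scalings and 635, 23 and 635 with the filters. The 2 scalings shifted these ratios by -0.44 and -0.42 log2, moving the split from 85 higher and 113 lower to 29 and 244.

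Genes higher over Lgr5 cells in both libraries numbered 13 with at least 3 Atoh1 or Dll1 UMIs, 12 and 38 with halved and doubled limits, 5 thinned, 11 without Mki67 or Top2a cells and 114, 6 and 314 with filters of 20, 300 and 1. Lower ones numbered 9 with at least 3 and 6 with at least 1 such UMI, 20 without tuft-gene members, 24 thinned, 79 without Mki67 or Top2a cells and 69 with either scaling. In control alone, higher genes numbered 28 with 1 UMI, 1668 with cells thinned first, 151 without mitochondrial and ribosomal genes, 229 with members thinned, 173 without Mki67 or Top2a cells and 164 and 30 at mean levels of 0.1 and 0.5. Lower genes numbered 86 with at least 3 and 1 with at least 1 UMI, 237 thinned first, 77 without those genes, 167 thinned, 134 without Mki67 or Top2a cells and 91 and 23 at the 2 levels. Of the 87 higher and 45 lower genes, 82 and 43 stayed past 2-fold without tuft-gene members.

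The secretory regulators' median was -0.45 with 1 UMI, -0.50 with doubled limits, 0.23 without tuft-gene members and 0.28 without Mki67 or Top2a cells. The G2/M median was -0.093 with at least 3 UMIs and 1.07 without Mki67 or Top2a cells. Sox4 between libraries turned to -0.35 with 1 UMI and -0.46 without tuft-gene members, and Reep5 to -0.14 with at least 3 UMIs. Over Lgr5 cells, Fcgbp turned to -0.38 with halved limits and Smim6 to -0.18 without tuft-gene members in Taf4 IEC enteroids, and with halved limits Defa24 turned to -0.0083 and Agr2 to -0.037 in control. The cause was not tested.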

Other observations

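Other gene groups stood near their stem cell level in control precursors. Of 28 genes of the ER secretory machinery 27 were measured over Lgr5 cells, with a median log2 ratio of 0.17, and only Herpud1, a gene of ER-associated degradation, was at least 2-fold higher (1.18, 0.92 to 1.44). Of 21 p53 targets 10 were measured with a median of 0.01, and 1 of them, the apoptosis-linked nuclease gene Aen, was at least 2-fold lower. The 8 measured genes of Polycomb repressive complex 2 had a median of 0.11 and the 6 of TFIID of 0.20, with none past 2-fold. Between libraries, the median over 4 Polycomb genes was -0.55 and over 3 p53 targets 0.75 in Taf4 IEC against control precursors, and no gene of either list was past 2-fold.

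Wnt3 and Clps did not follow the order of the other genes along Tff3 in control cells with Atoh1 or Dll1. In the 5 Tff3 bins from lowest to highest, Wnt3 stood at 0.762, 1.33, 1.01, 1.27 and 0.983 per 10000. Clps stood at 0.864, 4.51, 5.36, 2.71 and 8.34. Foxa2 was level over the first 4 bins, at 0.508, 0.525, 0.605 and 0.556, and stood at 0.225 in the last.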
